A study of Homo sapiens with 12 samples.

Results

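This comparison sets MV4-11 against OCI-AML3, 2 human leukaemia cell lines, under the solvent DMSO. It uses 6 of the 12 libraries of the series: 3 of MV4-11 and 3 of OCI-AML3, each line treated with DMSO alone for 24 h. The members are all genes of the raw count table, which had 19504 rows with a gene symbol, and 12392 of them passed the filter on low counts and were tested. Both lines grew in RPMI-1640 medium with heat-inactivated fetal bovine serum, antibiotics and GlutaMAX, and the labels name no other agent in these 6 libraries. The other 6 libraries hold the same lines under 5 nM of the FLT3 inhibitor AC220 (quizartinib). They entered the filter on low counts, the scaling and the estimate of the spread between libraries, but not the contrast itself. With the 6 DMSO libraries alone, 11951 genes passed the filter. Values under AC220 are given where they bear on a gene. The study as a whole asked about serine synthesis in leukaemia driven by mutant FLT3.

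MV4-11 is a line of acute monocytic leukaemia that carries an internal tandem duplication in the receptor FLT3 and a fusion of KMT2A to AFF1. OCI-AML3 is a line of acute myeloid leukaemia with mutations in NPM1, DNMT3A and NRAS and with no such duplication. FLT3 is a receptor tyrosine kinase of early blood progenitors, and the duplication lets it signal without its ligand through STAT5, the RAS-ERK cascade and PI3K. KMT2A fusions and mutant NPM1 are both known for keeping the HOXA genes and MEIS1 active, which are normally shut down as progenitors mature into granulocytes and monocytes. Each side is 1 line, so the 2 lines' mutations, other alterations and culture histories cannot be told apart as sources of a difference, and counts per gene do not read any of these mutations.

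The DMSO libraries held 15041493 to 16918761 counts in MV4-11 and 13013381 to 13455082 in OCI-AML3. Levels are in CPM, a gene's counts scaled by TMM to a common library total. Pairs of levels give the mean ± SD over 3 libraries for MV4-11 first and then for OCI-AML3. The kit reads 3′ ends, so CPM do not grow with a gene's length. A log2 difference above 0 means a higher level in MV4-11, and a gene was said to differ at an adjusted p under 0.05 in edgeR's quasi-likelihood test. No label states that the 3 libraries of a line were grown as separate cultures. A p-value therefore reflects only how these libraries vary, and that variation may be technical. In bulk RNA, fewer cells that express a gene and less RNA per cell cannot be told apart. In a single library, 3 counts amounted to 0.174 to 0.193 CPM in MV4-11 and 0.217 to 0.233 CPM in OCI-AML3. The floor behind a fold given as a bound was lower, at 3 counts over the 3 pooled libraries of a line.

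Most tested genes differed between the untreated lines. The level of 3981 genes (32.1% of those tested) was higher in MV4-11 and that of 4139 (33.4%) was higher in OCI-AML3, 8120 (65.5%) in all. A difference of at least 2-fold was reached by 1683 genes (13.6%) in favour of MV4-11 and by 1691 (13.6%) in favour of OCI-AML3. At least 8-fold apart were 519 genes (4.19%) higher in MV4-11 and 640 (5.16%) higher in OCI-AML3. The median log2 difference over all tested genes was 0.0054, and the 3 libraries of one line lay wholly above those of the other for 8906 genes (71.9%). Each list of genes below is read beside these shares. The lists were drawn up with earlier results of these data known, so their counts describe the lines and carry no test of their own.

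**Figure D1:**
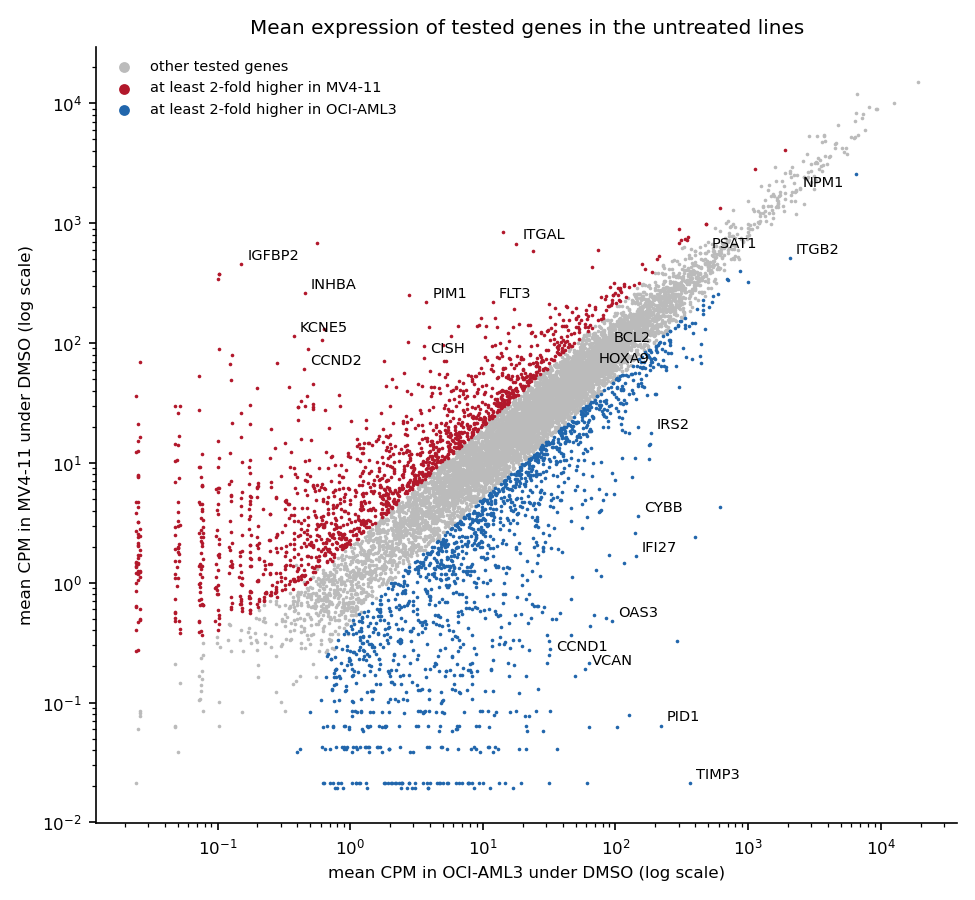
Mean CPM of 12094 tested genes in OCI-AML3 (x axis) and MV4-11 (y axis) under DMSO, both on log scales, with 298 tested genes left out because their mean was 0 in a line; red and blue points differed by at least 2-fold at an adjusted p under 0.05. ITGAL, INHBA and PIM1 lie far on the MV4-11 side, TIMP3, PID1 and CYBB far on the OCI-AML3 side, and NPM1, BCL2 and PSAT1 near the diagonal.

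The genes that define the lines' genotypes were read first. FLT3 is the receptor with the internal tandem duplication in MV4-11. It gave 193, 223 and 238 CPM in MV4-11 and 10.2, 13.4 and 11.9 CPM in OCI-AML3. The groups were far apart, and the level was 18.4-fold higher in MV4-11 (log2 difference 4.20 ± 0.30 (SE), edgeR adjusted p = 1.64e-06). DNMT3A, the de novo DNA methyltransferase mutated in OCI-AML3, went the other way, with 6.09, 5.52 and 4.05 CPM in MV4-11 and 29.1, 25.5 and 28.0 CPM in OCI-AML3. It was 5.27-fold higher in OCI-AML3 (log2 difference -2.39 ± 0.15 (SE), edgeR adjusted p = 1.14e-14), and the libraries did not overlap. NPM1, the nucleolar chaperone, was close in both lines at 1858 ± 38.6 against 2298 ± 22.2 CPM (log2 difference -0.31, edgeR adjusted p = 2.37e-05). KMT2A, the histone methyltransferase at the start of the fusion, had 106 ± 9.87 against 137 ± 6.24 CPM, and AFF1, its fusion partner, 12.9 ± 2.34 against 6.60 ± 0.991 CPM. A 3′ end count at AFF1 may include the fusion transcript, since the fusion ends in AFF1 sequence. NRAS, the small GTPase mutated in OCI-AML3, did not pass the test, at 31.8 ± 4.35 against 19.3 ± 2.22 CPM (edgeR adjusted p = 0.0797), but passed in a fit of the 6 DMSO libraries alone (edgeR adjusted p = 3.16e-07).

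Both lines carried the markers of a myeloid blood cell. PTPRC, the pan-leukocyte phosphatase CD45, had 84.9 ± 0.714 against 184 ± 4.74 CPM, and SPI1, the transcription factor PU.1, had 39.9 ± 1.04 against 52.4 ± 3.22 CPM. CD33, the myeloid surface antigen, was higher in MV4-11 (79.3, 63.4 and 67.5 CPM in MV4-11 and 51.5, 51.1 and 41.6 CPM in OCI-AML3; log2 difference 0.55 ± 0.10 (SE), edgeR adjusted p = 1.63e-05). LYZ, lysozyme, was higher in OCI-AML3 at 48.9 ± 4.59 against 135 ± 9.37 CPM. MPO, myeloperoxidase, was low in both, with 9.98, 9.37 and 9.32 CPM in MV4-11 and 2.80, 3.57 and 2.60 CPM in OCI-AML3, and higher in MV4-11. Markers of other lineages were sparse. Of the 29 erythroid and megakaryocyte genes, 15 had no counts in any of the 6 libraries and 6 passed the filter. Of these, GP1BB, a subunit of the platelet receptor for von Willebrand factor, stood at 3.99 ± 0.631 against 77.1 ± 3.30 CPM. Summed over its members, the erythroid and megakaryocyte list ran from 17.3 to 19.4 CPM in MV4-11 and from 81.1 to 85.7 in OCI-AML3, where most of it was GP1BB.

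Single genes of other lineages nonetheless differed. The B lymphoid list had 8 of 24 members past the filter, and 5 of these were at least 2-fold higher in MV4-11 and 1 in OCI-AML3 (2 without MV4-11 replicate 3). IGLL1, part of the surrogate light chain of precursor B cells, gave 26.1, 28.4 and 24.2 CPM in MV4-11 and 0, 0.152 and 0 CPM in OCI-AML3, a ratio of 523-fold (95% counting interval 144 to 4322). CD72, a B-cell inhibitory lectin, had 13.4 ± 0.943 against 1.18 ± 0.232 CPM. The T and NK cell list had 9 of 29 members past the filter, 1 at least 2-fold higher in MV4-11 and 4 in OCI-AML3. NKG7, a cytotoxic granule protein, had 12.1 ± 0.805 against 1.23 ± 0.193 CPM. The 4 genes higher in OCI-AML3 were all under 5 CPM. They include TCF7, a T-cell transcription factor, at 0.126 ± 0.0673 against 3.33 ± 1.22 CPM, and GZMA, the protease granzyme A, at 0.0193 ± 0.0335 against 2.43 ± 0.351 CPM, both chosen after their values were seen. NCAM1, the adhesion molecule CD56, was high in both lines (127 ± 5.58 against 161 ± 4.08 CPM). Of 23 epithelial, endothelial and stromal genes, 8 passed the filter, 2 at least 2-fold higher in MV4-11 (1 without MV4-11 replicate 1 or OCI-AML3 replicate 2) and 3 in OCI-AML3. KRT8, an epithelial keratin, stood at 10.6 ± 0.249 against 0.177 ± 0.117 CPM, COL6A1, a collagen chain, at 0.240 ± 0.204 against 5.84 ± 0.779 CPM and ACTA2, smooth muscle actin, at 1.72 ± 0.487 against 6.03 ± 1.40 CPM. The part of any other cell type in these values was not tested.

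Homeobox genes differed widely but leaned to neither line as a whole. Of 38 listed HOX, MEIS and PBX genes, 21 passed the filter, 9 were at least 2-fold higher in MV4-11, 8 in OCI-AML3 and 2 did not pass the test, with a median log2 difference of 0.093. HOXA9, the homeobox gene most tied to these leukaemias, was level at 63.0 ± 1.06 against 66.9 ± 4.72 CPM (edgeR adjusted p = 0.31). At the 3′ side of the cluster, HOXA2 was 2.65-fold higher in MV4-11 (5.15 ± 0.684 against 1.94 ± 0.699 CPM). Toward the 5′ end the order was the other way: HOXA10 was 2.06-fold higher in OCI-AML3 (119 ± 1.9 against 246 ± 13.3 CPM) and HOXA11 was 3.24-fold higher (15.6 ± 0.770 against 50.6 ± 3.23 CPM). HOXA13, the last gene of the cluster, gave 0.348, 0.449 and 0.514 CPM in MV4-11 and 61.5, 62.2 and 70.2 CPM in OCI-AML3. The OCI-AML3 libraries were all far above those of MV4-11, a difference of 148-fold (log2 difference -7.19 ± 0.16 (SE), edgeR adjusted p = 4.75e-25).

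The cofactors MEIS1, MEIS2 and PBX3 and some HOXB and HOXC genes were higher in MV4-11. HOXB4, known for expanding blood stem cells, gave 13.3, 15 and 15.4 CPM in MV4-11 and 0.0777, 0.380 and 0.506 CPM in OCI-AML3, a difference of 45.3-fold with no overlap. HOXB3 had 5.91 ± 1.25 against 0.453 ± 0.266 CPM and HOXC6 6.58 ± 0.867 against 0.527 ± 0.0730 CPM. The other HOXB genes tested, HOXB6, HOXB7 and HOXB13, were low and higher in OCI-AML3, at 0.206 ± 0.130 against 0.950 ± 0.119 CPM, 0.148 ± 0.101 against 2.03 ± 0.143 CPM and 0.0580 ± 0.100 against 4.72 ± 0.414 CPM. MEIS1, the cofactor that drives leukaemia together with HOXA9, was 1.83-fold higher in MV4-11 (40.2 ± 0.803 against 21.9 ± 0.278 CPM). Its relative MEIS2 was 2.15-fold higher (25.3 ± 1.67 against 11.7 ± 2.63 CPM). PBX3, the third partner of the complex, gave 164, 149.8 and 156 CPM in MV4-11 and 39.0, 42.9 and 38.6 CPM in OCI-AML3 and was 3.90-fold higher in MV4-11 (log2 difference 1.96 ± 0.081 (SE), edgeR adjusted p = 8.5e-19). PBX2, a relative, did not pass the test at 25.3 ± 1.96 against 23.7 ± 2.49 CPM (edgeR adjusted p = 0.468).

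**Figure D2:**
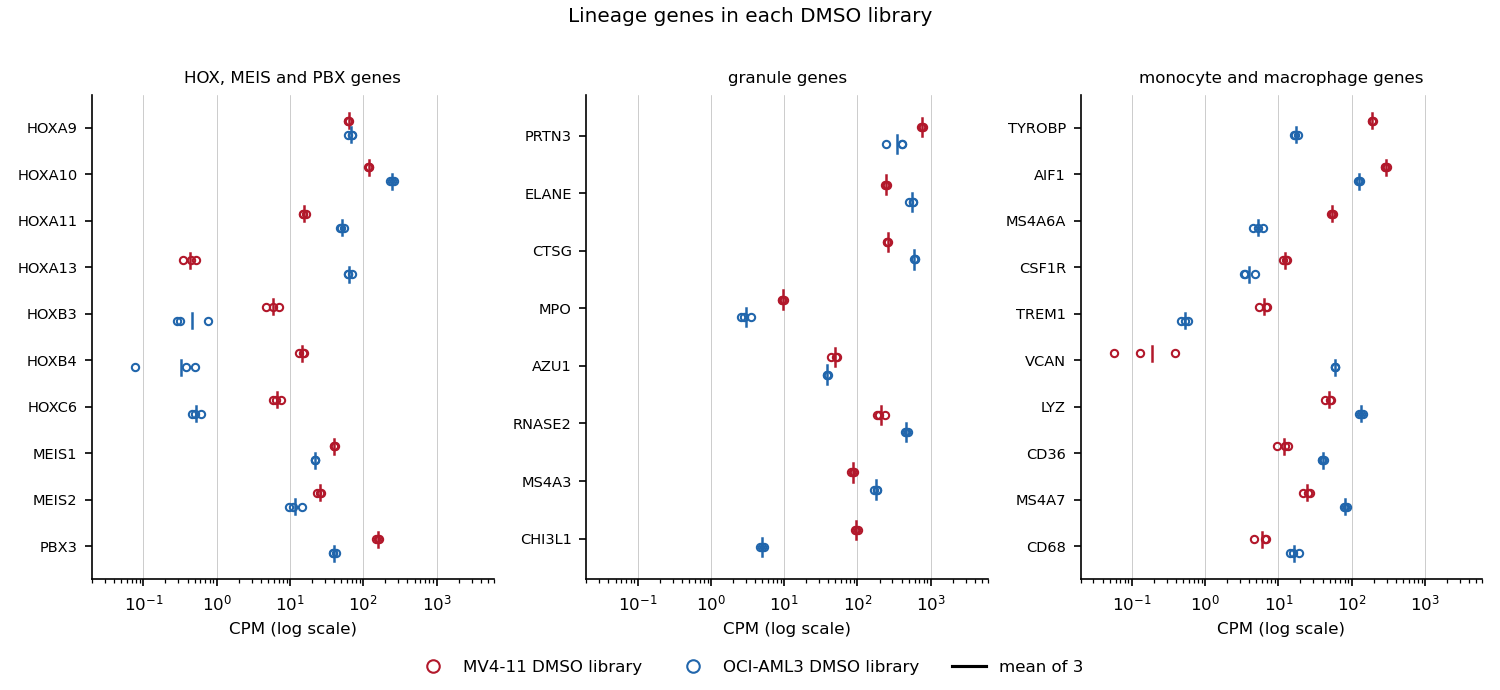
CPM of single lineage genes in each of the 3 MV4-11 (red) and 3 OCI-AML3 (blue) DMSO libraries on a log axis, with vertical bars at the mean of 3. HOXA9 libraries lie together, HOXA13 and VCAN libraries of OCI-AML3 lie far above those of MV4-11, and TYROBP and CHI3L1 libraries lie far below.

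Transcription factors of myeloid differentiation did not lean to one line. Of 34 tested of 40, 10 were at least 2-fold higher in MV4-11 and 8 in OCI-AML3 (median log2 difference 0.19). RUNX1, the core binding factor of definitive blood formation, gave 125, 123 and 127 CPM in MV4-11 and 30.9, 31.8 and 29.3 CPM in OCI-AML3 and was 4.07-fold higher in MV4-11. RUNX2, better known from bone, was 2.40-fold higher in OCI-AML3 (21.7 ± 1.67 against 52.2 ± 3.24 CPM). VDR, the vitamin D receptor that promotes monocytic differentiation, was 4.74-fold higher in MV4-11 (34.7 ± 3.08 against 7.32 ± 0.153 CPM). CEBPD, a C/EBP factor of granulocytes and inflammation, was 3.24-fold higher in OCI-AML3 (45.5 ± 6.06 against 147 ± 13.3 CPM), and CEBPA, the master factor of granulocytes, was higher there too (194 ± 3.97 against 299 ± 10.1 CPM). ERG, an ETS factor of stem cells, had no counts in the 3 MV4-11 libraries and 7.0, 3.95 and 6.65 CPM in OCI-AML3, which put it at least 94.7-fold higher in OCI-AML3. GFI1, a repressor needed by neutrophils, was abundant in both at 127 ± 0.973 against 118 ± 8.73 CPM and did not pass the test (edgeR adjusted p = 0.25).

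Many genes of leukaemic stem and progenitor cells were too low to test. CD34, KIT and CD7, which mark progenitors or aberrant blasts, stood at 0 ± 0 against 0.120 ± 0.209 CPM, 0.204 ± 0.0814 against 0 ± 0 CPM and 0 ± 0 against 0 ± 0 CPM. Of 16 tested of 37, 3 were at least 2-fold higher in MV4-11 and 5 in OCI-AML3. IGF2BP3, a fetal RNA-binding protein, had 0.274 ± 0.141 against 22.3 ± 3.26 CPM (81.2-fold higher in OCI-AML3). LAPTM4B, a lysosomal membrane protein of the stemness signature, had 18.6 ± 2.18 against 113 ± 3.95 CPM.

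Azurophil granule genes, which promyelocytes fill, were read unevenly. Of 32 listed, 17 passed the filter and 10 had no counts in any of the 6 libraries, with 3 at least 2-fold higher in MV4-11 and 6 in OCI-AML3. PRTN3, proteinase 3, gave 782, 762 and 745 CPM in MV4-11 and 403, 246 and 401 CPM in OCI-AML3. All MV4-11 libraries were above all OCI-AML3 libraries, among which replicate 2 was the lowest, and the difference was 2.18-fold (log2 difference 1.12 ± 0.17 (SE), edgeR adjusted p = 0.000295). ELANE, neutrophil elastase, gave 253, 248 and 236 CPM in MV4-11 and 571, 509.7 and 563 CPM in OCI-AML3 and was 2.23-fold higher in OCI-AML3 (log2 difference -1.16 ± 0.071 (SE), edgeR adjusted p = 9.71e-15). CTSG, cathepsin G, was 2.33-fold higher in OCI-AML3 (257 ± 3.99 against 598 ± 11.2 CPM). RNASE2 and RNASE3, the eosinophil-associated ribonucleases, were 2.23-fold and 2.11-fold higher there. These paralogues may share reads. CHI3L1, a chitinase-like secreted protein, was 19.4-fold higher in MV4-11 (96.8 ± 4.85 against 5.0 ± 0.349 CPM).

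Monocyte and macrophage genes leaned to MV4-11 in number, with clear exceptions. Of 27 tested of 41, 12 were at least 2-fold higher in MV4-11 and 8 in OCI-AML3, with a median log2 difference of 0.79. TYROBP, the adaptor DAP12 that signals for many myeloid receptors, gave 190.4, 193 and 192 CPM in MV4-11 and 17, 18.5 and 16.2 CPM in OCI-AML3, a difference of 11.1-fold (log2 difference 3.48 ± 0.10 (SE), edgeR adjusted p = 1.04e-18). MS4A6A, a monocyte tetraspan protein, had 54.6 ± 1.84 against 5.34 ± 0.836 CPM, and TREM1, an amplifier of inflammatory signals, had 6.42 ± 0.843 against 0.526 ± 0.0562 CPM. CSF1R, the receptor for macrophage colony-stimulating factor, was 3.16-fold higher in MV4-11 (12.4 ± 0.849 against 3.92 ± 0.819 CPM). On the other side, VCAN, the proteoglycan versican that marks classical monocytes, gave 0.0580, 0.385 and 0.129 CPM in MV4-11 and 58.3, 59.6 and 59.7 CPM in OCI-AML3. That was 311-fold higher in OCI-AML3 (log2 difference -8.24 ± 0.22 (SE), edgeR adjusted p = 3.48e-23). CD36, a scavenger receptor, was 3.43-fold higher in OCI-AML3 (11.8 ± 2.04 against 40.3 ± 1.54 CPM), as was CD68, a macrophage lysosomal glycoprotein, by 2.72-fold. CD14, the lipopolysaccharide co-receptor of mature monocytes, was low in both lines (0.328 ± 0.117 against 1.34 ± 0.636 CPM) and 4.10-fold higher in OCI-AML3 (edgeR adjusted p = 0.00132).

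The genes named of the phagocyte NADPH oxidase, which makes the respiratory burst, differed by unequal amounts. CYBB, its catalytic subunit, gave 3.4, 4.23 and 3.15 CPM in MV4-11 and 147, 149.9 and 144 CPM in OCI-AML3. All OCI-AML3 libraries lay far above, at 40.8-fold (log2 difference -5.35 ± 0.14 (SE), edgeR adjusted p = 5.12e-19). NCF1, a cytosolic subunit that shares sequence with near-identical pseudogenes, was 4.88-fold higher in OCI-AML3. RAC2, the GTPase of the complex, differed by under 1.5-fold (384 ± 14 against 331 ± 13.2 CPM).

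Osteoclast genes, which mark a fate that monocytes can take, differed in both directions. Of 9 tested of 14, 4 were at least 2-fold higher in MV4-11 and 2 in OCI-AML3, and 3 did not pass the test. OCSTAMP, a membrane protein of osteoclast fusion, gave 58.5, 66.5 and 62.3 CPM in MV4-11 and no counts in the 3 OCI-AML3 libraries, so it was at least 828-fold higher in MV4-11. Under AC220 the same gene had 0.0760, 0.0931 and 0.182 CPM in MV4-11. NFATC1, the main osteoclast transcription factor, was 2.32-fold higher in MV4-11 (36.8 ± 1.97 against 15.9 ± 1.98 CPM). TNFRSF11A, the receptor RANK, was higher in OCI-AML3 with 0.107 ± 0.0980 against 8.28 ± 1.28 CPM.

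Genes of MHC class II, which presents antigen to helper T cells, were mostly higher in MV4-11. Of 16 tested of 19 class II genes, 10 were at least 2-fold higher in MV4-11 and 0 in OCI-AML3, with a median log2 difference of 1.83, or 1.43 with unread genes set at the floor. HLA-DRA, the alpha chain of HLA-DR, gave 31.3, 27.4 and 30.9 CPM in MV4-11 and 0.155, 0 and 0 CPM in OCI-AML3, a ratio of 597-fold (95% counting interval 165 to 4931). HLA-DRB1, a beta chain, gave 36.8, 35.4 and 33.6 CPM in MV4-11 and no counts in the 3 OCI-AML3 libraries, and was at least 469-fold higher in MV4-11. HLA genes are polymorphic and alike, so the authors' counting may have lost or shared reads differently in each line. CD74, the invariant chain, was read in both lines and was 2.73-fold higher in MV4-11 (137 ± 5.81 against 50.2 ± 3.99 CPM). CIITA, the coactivator that switches class II genes on, differed little by comparison, at 43.9 ± 3.54 against 35.8 ± 3.66 CPM (log2 difference 0.30 ± 0.10 (SE), edgeR adjusted p = 0.00909), and missed the threshold without MV4-11 replicate 1 or OCI-AML3 replicate 3 (edgeR adjusted p = 0.0724 and 0.0789). IFI30, a lysosomal reductase of antigen processing, was 4.61-fold higher in MV4-11.

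MHC class I and peptide loading genes were close. Of 20 tested of 23, 1 was at least 2-fold higher in MV4-11 and 1 in OCI-AML3, and 8 did not pass the test. HLA-B, a classical class I heavy chain, had 413 ± 32.7 against 254 ± 10.2 CPM. PSMB9, a subunit of the immunoproteasome, was 2.24-fold higher in OCI-AML3 (29.1 ± 2.06 against 65.0 ± 4.86 CPM).

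**Figure D3:**
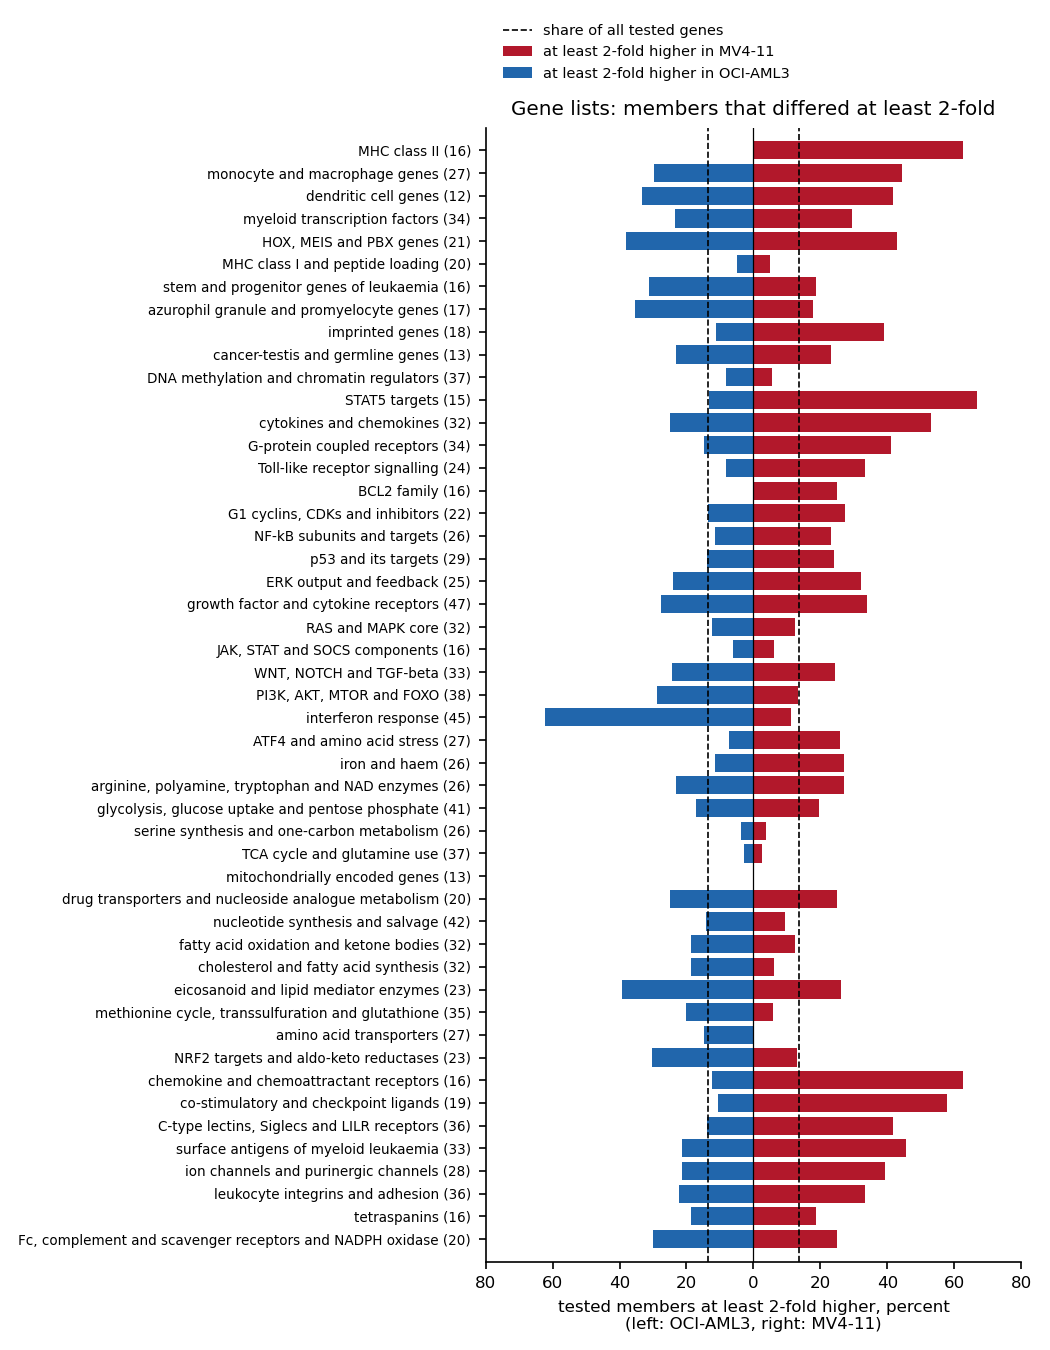
Share of tested members of each gene list that were at least 2-fold higher in MV4-11 (red, right) or OCI-AML3 (blue, left), for lists with at least 12 tested members; numbers in brackets are tested members and dashed lines mark the 13.6% of all tested genes. STAT5 targets, MHC class II and chemokine receptors reach furthest to the MV4-11 side and the interferon response furthest to the OCI-AML3 side.

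Some genes had reads in one line only. A gene was counted so when it had at least 20 counts in every DMSO library of one line and at most 3 counts in all over the other line's 3 DMSO libraries. MV4-11 alone had 148 such genes (0.759% of rows with a symbol) and OCI-AML3 alone 199 (1.02%). Of these, 67 and 114 had no count at all in the other line. The pattern was also looked for under AC220: 86 of the 148 and 145 of the 199 met the same limits in the 6 AC220 libraries. Most were low. With Y-linked markers left out, the median mean level was 3.70 CPM for the MV4-11 genes and 5.43 CPM for the OCI-AML3 genes. Of all 148 and 199 genes, 42 and 53 reached 10 CPM.

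On the MV4-11 side SNRPN, an imprinted gene for a splicing protein, had 128, 132 and 123 CPM in MV4-11 and no counts in the 3 OCI-AML3 libraries, at least 1697-fold higher than in OCI-AML3. SNURF, which shares its transcript, had nearly the same counts, and the reads of both cannot be told apart. NDN, an imprinted growth suppressor of the same chromosome region, gave 12.8, 14 and 14.7 CPM in MV4-11 and no counts in the 3 OCI-AML3 libraries. FCER2, the low-affinity IgE receptor CD23, gave 52.3, 52.0 and 54.3 CPM in MV4-11 and 0, 0 and 0.217 CPM in OCI-AML3, a ratio of 702-fold (95% counting interval 239.9 to 3406). APP, the amyloid precursor protein, stood at 36.3 ± 0.715 against 0.0241 ± 0.0417 CPM. CLECL1, a C-type lectin-like protein, had 27.7 CPM and NFATC2, a calcium-regulated transcription factor, 22.0 CPM, both with no counts in OCI-AML3. HMX2, a homeobox gene otherwise known from the inner ear, and TMEM233, a small membrane protein, had 38.0 and 52.5 CPM with none in OCI-AML3. SLC28A3, a nucleoside transporter that also carries nucleoside drugs, had 16.7, 16.5 and 15.9 CPM in MV4-11 and no counts in the 3 OCI-AML3 libraries, at least 218-fold higher in MV4-11. ORM1, an acute-phase glycoprotein that is nearly identical to a neighbour, had 16.1 CPM under DMSO and 0.380, 0.559 and 0.272 CPM in the MV4-11 libraries under AC220.

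In OCI-AML3, TIMP3, an inhibitor of matrix metalloproteinases, led with 0, 0.0642 and 0 CPM in MV4-11 and 355, 368 and 369.5 CPM in OCI-AML3. A single count in MV4-11 set the ratio at 17625-fold (95% counting interval 3163 to 696192). PID1, an adaptor that blunts insulin signalling, stood at 0.0642 ± 0.111 against 219.9 ± 18.7 CPM, a ratio of 3541-fold (95% counting interval 1211 to 17172). G0S2, an inhibitor of the lipase of fat droplets, gave 0.0580, 0.128 and 0 CPM in MV4-11 and 85.7, 92.3 and 129 CPM in OCI-AML3, highest in replicate 3. PPFIA2, a liprin scaffold mostly known from synapses, had no counts in the 3 MV4-11 libraries and 61.5, 71.7 and 69.7 CPM in OCI-AML3 and was at least 1091-fold higher in OCI-AML3. INPP4B, a lipid phosphatase that opposes or redirects PI3K signalling, was at least 697-fold higher, and CA2, a carbonic anhydrase, at least 562-fold. GTSF1, a germline gene that protects against transposons, had 61.4 CPM, and MAGED1, a MAGE-family adaptor, 31.7 CPM. WNT7B, a WNT ligand, had 28.4 CPM, and RET, a receptor tyrosine kinase for the GDNF family, 18.5 CPM (at least 297-fold higher). NKX6-1, a homeobox gene otherwise known from pancreatic beta cells, had 23.7 CPM.

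**Figure D4:**
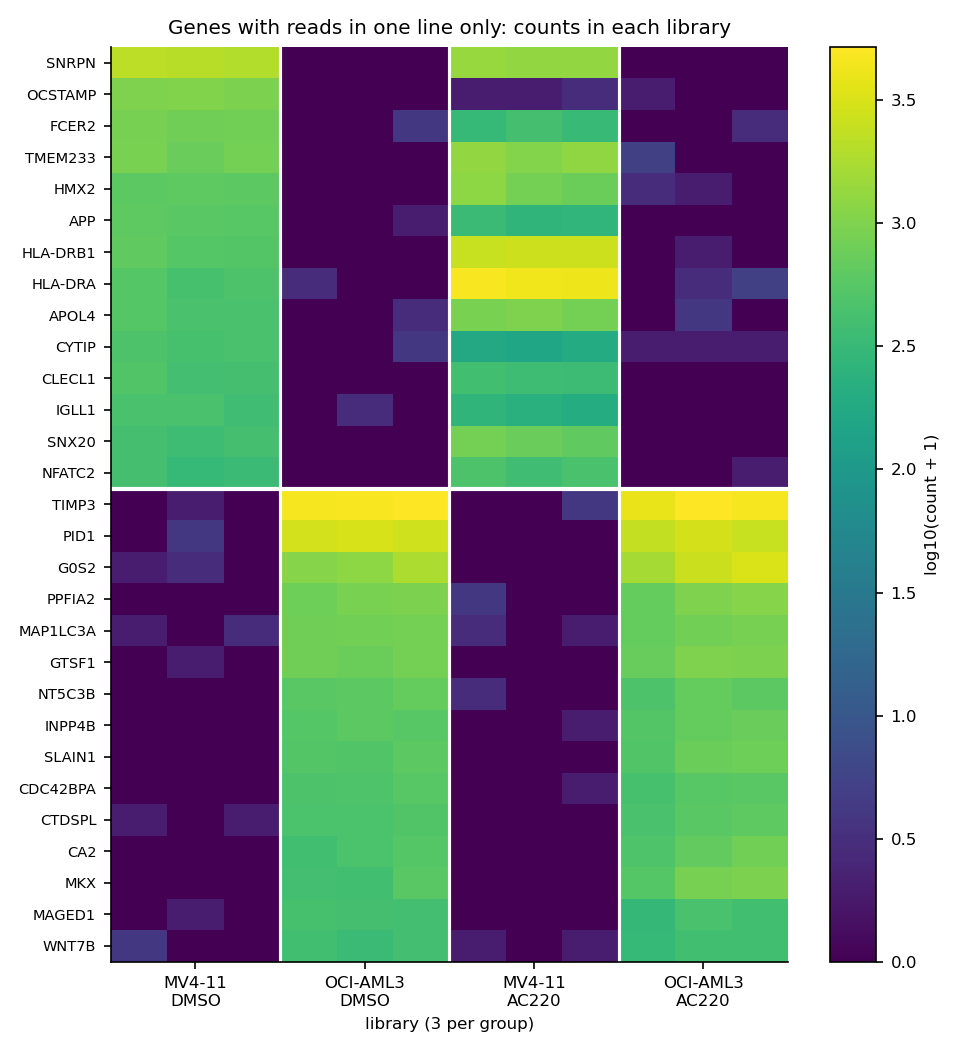
Raw counts as log10(count + 1) of 14 genes read in MV4-11 only (top) and 15 read in OCI-AML3 only (bottom) in the 12 libraries, 3 per group, with AC220 columns shown for reference. Within each block the other line's columns are near 0 under both treatments, and OCSTAMP is the gene of the top block that is also near 0 in MV4-11 under AC220.

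Further genes did not meet that limit but had wide gaps. IGFBP2, a carrier of insulin-like growth factors, gave 471, 471 and 427 CPM in MV4-11 and 0.233, 0.0760 and 0.145 CPM in OCI-AML3, a difference of 3018-fold. PRSS57, a granule serine protease, had 339 ± 6.36 against 0.101 ± 0.0470 CPM. APOC2, a cofactor of lipoprotein lipase, had 376 ± 4.05 against 0.102 ± 0.116 CPM; APOC4 overlaps it and had nearly the same counts. The next 5 genes were chosen after their values were seen, as abundant genes with wide gaps. PITX1, a homeobox gene of the hindlimb, stood at 677 ± 27.2 against 0.561 ± 0.437 CPM, and SLC44A1, a choline transporter, at 837 ± 40.4 against 14.1 ± 0.955 CPM. BASP1, a membrane-bound and nuclear signalling protein, stood at 4.26 ± 0.830 against 613 ± 24.6 CPM, and CKAP4, an anchor of the endoplasmic reticulum, at 2.42 ± 0.452 against 401 ± 15.4 CPM. UNCX, a homeobox gene of the vertebral column, had 0.326 ± 0.175 against 289 ± 6.14 CPM. PITX1 and SLC44A1 were 1205-fold and 59.4-fold higher in MV4-11. BASP1, CKAP4 and UNCX were 144-fold, 166-fold and 888-fold higher in OCI-AML3.

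STAT5 is a transcription factor that FLT3 with the internal tandem duplication is known to activate. By share of tested members, its targets were the signalling list most tilted to MV4-11. Of 15 tested of 15, 10 were at least 2-fold higher in MV4-11, 2 in OCI-AML3 and 3 did not pass the test, with a median log2 difference of 3.10. CISH, a feedback inhibitor induced by STAT5, gave 69.8, 78.7 and 78.1 CPM in MV4-11 and 3.34, 3.04 and 4.48 CPM in OCI-AML3, 20.9-fold higher in MV4-11 (log2 difference 4.37 ± 0.14 (SE), edgeR adjusted p = 1.29e-21). Its relatives were higher there too: SOCS2 had 22.1 ± 2.31 against 1.01 ± 0.287 CPM, SOCS1 5.32 ± 0.537 against 0.177 ± 0.121 CPM and SOCS3 7.61 ± 1.07 against 0.872 ± 0.248 CPM. PIM1, a survival kinase, gave 182, 225 and 254 CPM in MV4-11 and 2.18, 4.41 and 4.70 CPM in OCI-AML3 and was 58.6-fold higher in MV4-11 (log2 difference 5.86 ± 0.34 (SE), edgeR adjusted p = 2.88e-07). PIM2 was 4.40-fold higher, while PIM3 did not pass the test at 126 ± 2.68 against 141 ± 6.42 CPM (edgeR adjusted p = 0.0517). CCND2, cyclin D2, gave 59.5, 59.2 and 63.7 CPM in MV4-11 and 0.544, 0.304 and 0.506 CPM in OCI-AML3, 135-fold higher in MV4-11. The genes of this list that were higher in OCI-AML3 were BCL6 and ID1, an inhibitor of basic helix-loop-helix factors, which had 3.26 ± 1.26 against 46.5 ± 3.92 CPM. IL2RA, the alpha chain of the interleukin-2 receptor CD25, had 12.5 ± 0.239 against 0.0253 ± 0.0439 CPM, a ratio of 500.1-fold (95% counting interval 89.4 to 19786). MYC, the growth regulator, differed less, with 37.8, 39.7 and 52.3 CPM in MV4-11 and 16.2, 17.1 and 27.3 CPM in OCI-AML3 (log2 difference 1.09 ± 0.37 (SE), edgeR adjusted p = 0.0287). It missed the threshold without MV4-11 replicate 3 or without OCI-AML3 replicate 1 or 2 (edgeR adjusted p = 0.0890, 0.0926 and 0.0838). STAT5A itself had 6.49 ± 0.333 against 0.0766 ± 0.0760 CPM, a ratio of 86.2-fold (95% counting interval 29.2 to 420.4). CCND1, cyclin D1, which is not on the STAT5 list, went the other way, with 0.174, 0.192 and 0.386 CPM in MV4-11 and 34.2, 32.7 and 28.6 CPM in OCI-AML3, 127-fold higher in OCI-AML3.

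The promoter of CISH is shown because it holds the STAT motif searched for 4 times. The sequence is the 250 bases before the gene start in RefSeq (GRCh38.p14, chr3:50611775-50612024, minus strand), 5′ to 3′, with each match to TTCNNNGAA in capitals.
CISH: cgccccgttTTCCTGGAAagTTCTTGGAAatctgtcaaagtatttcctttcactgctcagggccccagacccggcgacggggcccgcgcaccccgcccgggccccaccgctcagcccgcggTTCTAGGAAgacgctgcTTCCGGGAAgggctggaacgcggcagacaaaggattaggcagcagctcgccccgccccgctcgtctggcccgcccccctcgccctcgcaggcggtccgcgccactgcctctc
Counting the base before the start as -1, the matches begin at -241, -230, -129 and -112. The motif reads the same on both strands. It was present in 7.52% of 9877 tested genes with a promoter sequence, and in 2 of the 11 STAT5 list members with a sequence (18.2%), CISH and BCL6. BCL6, a repressor that STAT5 is known to shut off, was 5.08-fold higher in OCI-AML3 (0.767 ± 0.234 against 3.90 ± 0.598 CPM). A match is a description of letters and no evidence of binding.

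The interferon response was, by share of tested members, the list most tilted to OCI-AML3 of those with at least 12 tested. Interferons act through receptors and transcription factors that bind a motif in the promoters of antiviral genes. Of 45 tested of 46 members, 28 were at least 2-fold higher in OCI-AML3 and 5 in MV4-11, and 8 did not pass the test (median log2 difference -1.43). Summed over its members the list ran from 1704 to 1761 CPM in MV4-11 and from 2853 to 3108 in OCI-AML3.

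The promoters of 4 members are shown because each member was higher in OCI-AML3 and each promoter holds the interferon motif searched for, GAAA followed by any 2 bases and GAAA again, in capitals, on one strand or the other. Each is the 250 bases before a RefSeq gene start (GRCh38.p14, plus strand), 5′ to 3′. MX1 had 3 start sequences and IFI27 had 2, and the first that holds the motif is shown.
OAS3: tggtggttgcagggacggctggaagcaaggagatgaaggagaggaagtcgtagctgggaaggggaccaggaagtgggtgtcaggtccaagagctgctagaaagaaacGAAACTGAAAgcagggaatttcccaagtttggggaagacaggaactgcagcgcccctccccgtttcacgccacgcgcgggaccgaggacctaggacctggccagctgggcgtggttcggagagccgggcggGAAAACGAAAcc
MX1: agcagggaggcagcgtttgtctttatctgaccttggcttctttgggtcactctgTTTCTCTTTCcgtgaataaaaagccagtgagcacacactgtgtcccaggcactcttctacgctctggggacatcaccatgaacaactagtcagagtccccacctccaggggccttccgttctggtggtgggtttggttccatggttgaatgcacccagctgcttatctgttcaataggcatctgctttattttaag
IFI27: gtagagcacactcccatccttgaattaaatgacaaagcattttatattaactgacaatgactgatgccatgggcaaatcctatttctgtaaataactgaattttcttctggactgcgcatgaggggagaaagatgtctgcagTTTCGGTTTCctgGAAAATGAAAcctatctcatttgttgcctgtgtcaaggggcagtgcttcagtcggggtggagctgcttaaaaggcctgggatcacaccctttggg
IFIT1: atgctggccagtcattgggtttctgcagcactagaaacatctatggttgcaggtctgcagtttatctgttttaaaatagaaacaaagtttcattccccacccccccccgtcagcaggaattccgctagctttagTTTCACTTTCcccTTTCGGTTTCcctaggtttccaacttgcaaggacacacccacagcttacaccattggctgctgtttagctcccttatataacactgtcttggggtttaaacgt
They lie at chr12:112938224-112938473, chr21:41431800-41432049, chr14:94110486-94110735 and chr10:89392373-89392622. The matches begin at -143 and -12 in OAS3, at -196 in MX1, at -108 and -95 in IFI27 and at -116 and -103 in IFIT1. The motif was found in 3.59% of 9877 tested genes with a sequence. Among list members with a sequence it was found in 15 of 22 that were at least 2-fold higher in OCI-AML3 (68.2%), in 1 of 2 higher in MV4-11 and in 4 of the other 8 members. Among all tested genes at least 2-fold higher in OCI-AML3 the share was 5.12%, and among those higher in MV4-11 it was 5.34%.

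OAS3, an enzyme that makes the second messenger of RNA decay, gave 0.348, 0.577 and 0.514 CPM in MV4-11 and 84.3, 93.8 and 104 CPM in OCI-AML3. It was 196-fold higher in OCI-AML3 (log2 difference -7.60 ± 0.20 (SE), edgeR adjusted p = 3.61e-21). MX1, an antiviral GTPase, gave 0.580, 0.449 and 0.579 CPM in MV4-11 and 66.7, 74.8 and 65.3 CPM in OCI-AML3, and IFI27, a small mitochondrial protein, 1.57, 1.86 and 1.54 CPM in MV4-11 and 126, 142 and 158 CPM in OCI-AML3. The libraries of each were far apart, by 129-fold for MX1 and 85.6-fold for IFI27. IFITM3, which blocks viral entry, had 10.8 ± 1.39 against 179.5 ± 13.4 CPM, and SAMD9L, a growth-restraining antiviral protein, 5.08 ± 0.939 against 64.9 ± 6.78 CPM. OAS2, a relative of OAS3, had 11.1 ± 1.18 against 112 ± 6.19 CPM. HERC5, the ligase of ISG15, had 3.89 ± 0.505 against 36.3 ± 4.15 CPM.

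Not every interferon gene followed. IFITM1, a close relative of IFITM3, was 13.1-fold higher in MV4-11 (161 ± 8.86 against 12.3 ± 0.354 CPM), and these paralogues may share reads. The guanylate-binding proteins, which respond mainly to interferon gamma, were also higher in MV4-11: GBP2 had 9.11 ± 1.28 against 0.374 ± 0.123 CPM, GBP5 7.55 ± 0.866 against 0.0753 ± 0.00278 CPM and GBP4 17 ± 1.76 against 8.31 ± 1.2 CPM. IRF1, another factor known for its response to interferon gamma, did not pass the test at 65.3 ± 1.21 against 57.3 ± 4.92 CPM (edgeR adjusted p = 0.0553). Of the receptor chains for type I interferon, IFNAR2 was 1.44-fold higher in MV4-11 (72.0 ± 2.37 against 50 ± 2.76 CPM).

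**Figure D5:**
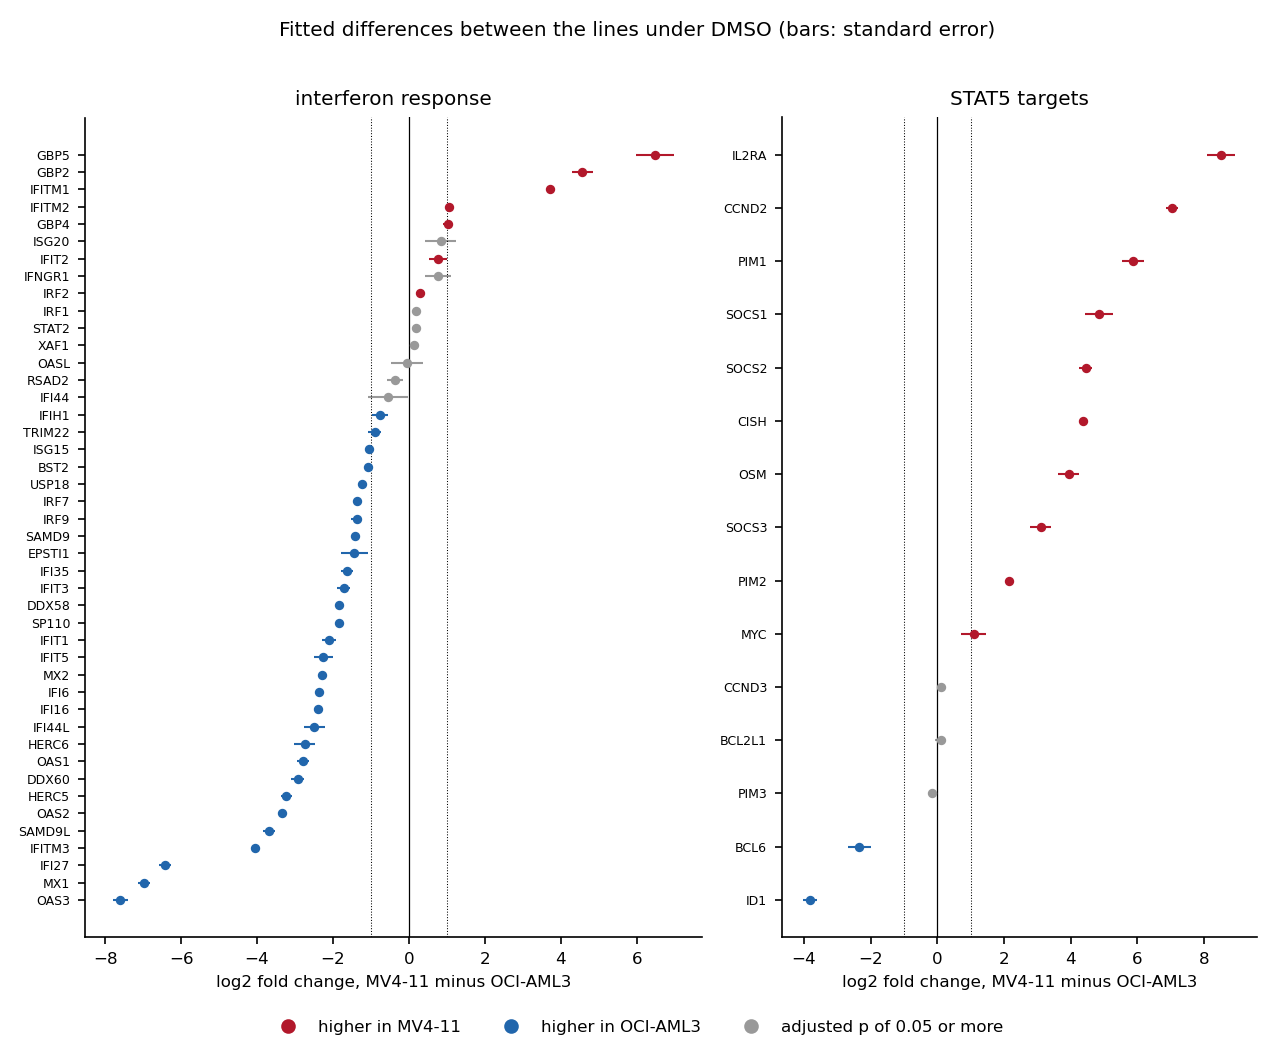
Fitted log2 differences (MV4-11 minus OCI-AML3; bars are standard errors; dotted lines at 2-fold) of 44 of the tested members of the interferon list (left) and of the tested members of the STAT5 target list (right), coloured by direction where the adjusted p was under 0.05. Most interferon members lie left of 0 with OAS3, MX1 and IFI27 at the far end and GBP5, GBP2 and IFITM1 opposite, and most STAT5 targets lie right of 0. The values of genes with few or no counts in a line, such as GBP5 and IL2RA, depend on a prior count.

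At 2-fold, core genes of the RAS and ERK cascade differed about as often as all tested genes (25% against 27.2%). Its outputs differed more often (56%), in both directions. Of 32 tested core genes, 4 were at least 2-fold higher in MV4-11 and 4 in OCI-AML3, and 16 did not pass the test. Of 25 tested output and feedback genes, 8 were at least 2-fold higher in MV4-11 and 6 in OCI-AML3. DUSP6, the phosphatase that ERK induces against itself, gave 133, 135 and 136 CPM in MV4-11 and 16.7, 15 and 19.3 CPM in OCI-AML3, 7.92-fold higher in MV4-11 (log2 difference 2.98 ± 0.11 (SE), edgeR adjusted p = 2.7e-20). ETV5, an ETS factor downstream of ERK, was 3.55-fold higher there (41.7 ± 2.34 against 11.8 ± 1.66 CPM). In the core list, GAB2, a docking protein of cytokine receptors, was 10.7-fold higher (111 ± 2.19 against 10.4 ± 1.02 CPM), as was KSR1, a scaffold of the cascade, by 9.30-fold. SPRED1, an inhibitor of RAS, had 0.0856 ± 0.0980 against 25.4 ± 1.59 CPM and was 297-fold higher in OCI-AML3. SPRY2, a related inhibitor, had 3.36 ± 0.810 against 24.7 ± 0.981 CPM. RRAS2, a RAS-like GTPase of the core list, was at the floor in MV4-11 (0.0428 ± 0.0371 against 11.1 ± 0.719 CPM, a ratio of 269-fold (95% counting interval 74.0 to 2227)).

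In the PI3K and FOXO list the larger number was higher in OCI-AML3. Of 38 tested of 40, 5 were at least 2-fold higher in MV4-11 and 11 in OCI-AML3 (median log2 difference -0.19). IRS2, an adaptor of the insulin receptor, was 10.4-fold higher in OCI-AML3 (17.8 ± 1.1 against 185 ± 8.25 CPM). SESN3, a FOXO target that restrains mTORC1, had 1.93 ± 1.26 against 37.0 ± 6.0 CPM, and FOXO1 itself 0.186 ± 0.0108 against 7.74 ± 0.808 CPM. PIK3CG, the PI3K of G-protein signals, had 6.46 ± 1.38 against 36.9 ± 0.401 CPM.

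Receptors and secreted factors differed widely. Of 47 tested receptors of growth factors and cytokines, 16 were at least 2-fold higher in MV4-11 and 13 in OCI-AML3. IL3RA, the interleukin-3 receptor alpha chain CD123, gave 53.9, 52.5 and 53 CPM in MV4-11 and 10.4, 8.28 and 7.52 CPM in OCI-AML3, 6.08-fold higher in MV4-11 (log2 difference 2.61 ± 0.12 (SE), edgeR adjusted p = 1.07e-17). CSF2RA, the receptor for GM-CSF, had 11.5 ± 1.11 against 0.725 ± 0.414 CPM, and IL1RAP, the shared chain of interleukin-1 receptors, 42.8 ± 4.03 against 2.21 ± 0.206 CPM. IL6R was 3.82-fold higher in OCI-AML3 (43.1 ± 0.851 against 165 ± 9.59 CPM). Of 68 cytokines and chemokines, 32 passed the filter, with 17 at least 2-fold higher in MV4-11 and 8 in OCI-AML3. INHBA, the subunit of activin A, gave 248, 269 and 269 CPM in MV4-11 and 0.777, 0.228 and 0.361 CPM in OCI-AML3 and was 575-fold higher in MV4-11 (log2 difference 9.15 ± 0.15 (SE), edgeR adjusted p = 1e-28). TNF had 53.9 ± 1.59 against 22.6 ± 2.57 CPM, and PDGFA, a platelet-derived growth factor chain, 53.1 ± 0.458 against 8.12 ± 0.547 CPM. CXCL8, interleukin-8, was 9.21-fold higher in OCI-AML3 (1.93 ± 0.823 against 17.7 ± 2.63 CPM), and CXCL1, a related chemokine, at least 227-fold higher. IL1RN, the interleukin-1 receptor antagonist, had 25.6 ± 2.96 against 80.4 ± 1.21 CPM.

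NF-kB and Toll-like receptor genes differed in both directions. In the NF-kB list 6 of 26 tested members were at least 2-fold higher in MV4-11 and 3 in OCI-AML3. In the Toll-like receptor list these were 8 and 2 of 24, the latter 4 without MV4-11 replicate 2. TNFAIP3, the brake A20, had 40.3 ± 2.66 against 7.49 ± 1.62 CPM, and BCL3, a nuclear partner of NF-kB, 35.9 ± 2.09 against 6.61 ± 1.64 CPM. CD180 and LY86, which pair as a Toll-like receptor complex, had 43.2 ± 2.53 against 6.30 ± 0.821 CPM and 48.0 ± 3.53 against 6.60 ± 1.41 CPM. NLRP3, the inflammasome sensor, was 2.27-fold higher in OCI-AML3 (17.2 ± 1.95 against 39.0 ± 1.55 CPM). NFKBIZ, an atypical nuclear inhibitor of the family, had 1.01 ± 0.193 against 9.98 ± 1.53 CPM, and TLR4, the receptor for lipopolysaccharide, 2.20 ± 0.363 against 6.26 ± 1.22 CPM, both higher in OCI-AML3.

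Cell-cycle inhibitors differed in both directions. Of 22 tested G1 cyclins, CDKs and inhibitors, 6 were at least 2-fold higher in MV4-11 and 3 in OCI-AML3. CDKN2A, which encodes p16 and p14ARF, was 7.95-fold higher in MV4-11 (93.9 ± 3.25 against 11.8 ± 1.16 CPM), and CDKN1A, the p53 target p21, 4.57-fold higher (114 ± 3.36 against 24.8 ± 5.30 CPM). CDKN2C, p18, was 4.69-fold higher in OCI-AML3 (37.0 ± 3.01 against 174 ± 2.14 CPM). CCND3, cyclin D3, did not pass the test (184 ± 8.74 against 169.6 ± 10.1 CPM). TP73, the p53 relative, was 156-fold higher in OCI-AML3 (0.120 ± 0.116 against 18.8 ± 0.526 CPM). BCL2, the target of venetoclax, gave 89.7, 93.9 and 95.9 CPM in MV4-11 and 84.9, 92.9 and 85.0 CPM in OCI-AML3. The 2 groups overlapped and it did not pass the test (edgeR adjusted p = 0.292). MCL1 was 1.52-fold higher in OCI-AML3 (139 ± 7.16 against 211 ± 6.83 CPM). Of 16 tested members of the BCL2 family, 4 were at least 2-fold higher in MV4-11 and 0 in OCI-AML3, which was 1 without MV4-11 replicate 1 or without OCI-AML3 replicate 1 or 2. BIK and BMF, both pro-apoptotic BH3-only proteins, were 6.85-fold and 4.75-fold higher in MV4-11, while BBC3, another of them, did not pass the test at 119 ± 6.11 against 109.5 ± 6.81 CPM (edgeR adjusted p = 0.168).

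Serine synthesis, the subject of the study's title, was close in the untreated lines. PHGDH, the first enzyme of the pathway, gave 328, 326 and 314 CPM in MV4-11 and 294, 303 and 253 CPM in OCI-AML3. All MV4-11 libraries lay above all OCI-AML3 libraries, but the gap was small, at 1.1-fold (log2 difference 0.19 ± 0.069 (SE), edgeR adjusted p = 0.0184). It missed the threshold without MV4-11 replicate 1 or 2 or without OCI-AML3 replicate 3 (edgeR adjusted p = 0.0595, 0.0539 and 0.173). PSAT1, the second enzyme, was 1.18-fold higher in MV4-11 (569 ± 27.7 against 481 ± 6.57 CPM; log2 difference 0.24 ± 0.063 (SE), edgeR adjusted p = 0.00141). PSPH, the last enzyme, did not pass the test at 71.5 ± 3.12 against 66.1 ± 3.11 CPM (edgeR adjusted p = 0.209). SHMT2, which passes serine's carbon to folate in mitochondria, did not pass either at 285 ± 9.32 against 295 ± 15.2 CPM (log2 difference -0.047, edgeR adjusted p = 0.548). Of 26 tested of 29 serine and one-carbon genes, 1 was at least 2-fold higher in MV4-11, 1 in OCI-AML3 and 10 did not pass the test. These 2 counts were 0 and 2 without MV4-11 replicate 3, 0 and 1 without OCI-AML3 replicate 2 and 2 and 1 without OCI-AML3 replicate 3. SFXN1, the mitochondrial serine carrier, was that OCI-AML3 gene, at 27.9, 30.4 and 25.4 CPM in MV4-11 and 75.0, 71.6 and 80.7 CPM in OCI-AML3 (2.72-fold). MTHFD1L, the last step of the mitochondrial folate route, was 1.66-fold higher in MV4-11.

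Genes around this pathway were less even. ATF5, a stress transcription factor, was 24.8-fold higher in MV4-11 (589.6 ± 42.6 against 23.8 ± 1.22 CPM), and TRIB3, an ATF4-induced pseudokinase, 4.70-fold higher (176 ± 8.54 against 37.5 ± 3.27 CPM). ATF4 itself differed by under 1.5-fold (922 ± 33.8 against 1175 ± 70.2 CPM). STC2, a secreted glycoprotein of the same stress list, was 169-fold higher in OCI-AML3 (0.504 ± 0.323 against 85.0 ± 8.76 CPM). CBS, which draws homocysteine into cysteine synthesis, was 4.49-fold higher in OCI-AML3 (75.9 ± 3.30 against 341 ± 27.2 CPM), and MGST1, a microsomal glutathione transferase, 3.07-fold higher (33.9 ± 2.72 against 104 ± 6.46 CPM). In the methionine and glutathione list 2 of 35 tested members were at least 2-fold higher in MV4-11 and 7 in OCI-AML3. No tested amino acid transporter of 27 was at least 2-fold higher in MV4-11, and 4 were in OCI-AML3. SLC7A5 and SLC1A5, the carriers of large neutral amino acids and of glutamine, had 353 ± 6.99 against 304 ± 19.6 CPM and 365 ± 12.5 against 274 ± 17.8 CPM.

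Glucose use leaned to neither line as a whole, with 8 of 41 tested members at least 2-fold higher in MV4-11 and 7 in OCI-AML3. The glucose transporters SLC2A1 and SLC2A3 were 2.59-fold and 2.56-fold higher in MV4-11. GPI, an early step of glycolysis, had 315 ± 8.90 against 151 ± 3.87 CPM, and PGD, of the pentose phosphate pathway, 107 ± 6.07 against 40.2 ± 3.64 CPM. PFKFB3, which speeds glycolysis, was 3.39-fold higher in OCI-AML3. LDHA and ENO1, both very abundant, differed by under 1.5-fold. In the citrate cycle and glutamine list 15 of 37 tested members did not pass the test. GLUL, glutamine synthetase, gave 197, 190.2 and 203 CPM in MV4-11 and 37.1, 33.7 and 34.0 CPM in OCI-AML3 and was 5.64-fold higher in MV4-11. ME1, the cytosolic malic enzyme, had 0.255 ± 0.174 against 8.85 ± 1.16 CPM and was higher in OCI-AML3. None of 13 mitochondrially encoded genes differed by 2-fold.

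Of 32 tested genes of fatty acid oxidation and ketone bodies, 4 were at least 2-fold higher in MV4-11 and 6 in OCI-AML3. CPT1A, which admits long-chain fatty acids to mitochondria, gave 156, 140.0 and 140.0 CPM in MV4-11 and 17.6, 20.4 and 18.2 CPM in OCI-AML3, 7.75-fold higher in MV4-11 (log2 difference 2.95 ± 0.092 (SE), edgeR adjusted p = 1.34e-21). HADHA, of the oxidation cycle itself, was 2.40-fold higher in OCI-AML3 (222 ± 10.9 against 533 ± 28.9 CPM), as were ECI2, an isomerase for unsaturated chains (0.548 ± 0.302 against 19.3 ± 1.02 CPM), and CRAT, the carnitine acetyltransferase (0.322 ± 0.224 against 14.7 ± 0.942 CPM). ECHS1 and ETFA, also of the oxidation cycle, differed by under 1.5-fold. FASN, fatty acid synthase, and FADS1, a desaturase, were 2.02-fold and 3.83-fold higher in OCI-AML3. INSIG1, a sterol sensor, was 3.51-fold higher in MV4-11. Lipid mediator enzymes also parted: ALOX5AP, which serves leukotriene synthesis, had 288 ± 11.9 against 105 ± 4.29 CPM, and LTA4H, the next enzyme toward leukotriene B4, 19.9 ± 1.04 against 81.1 ± 7.12 CPM. TBXAS1, thromboxane synthase, was 10.3-fold higher in MV4-11. MGLL, monoacylglycerol lipase, was read in MV4-11 only (at least 181-fold) and LPL, lipoprotein lipase, in OCI-AML3 only (at least 96.3-fold).

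The main iron genes were higher in MV4-11. TFRC, the transferrin receptor CD71, gave 209.7, 202 and 203 CPM in MV4-11 and 43.2, 42.6 and 42.1 CPM in OCI-AML3, 4.81-fold higher in MV4-11. FTL and FTH1, the ferritin chains, had 2837 ± 97.7 against 1129 ± 62.0 CPM and 978 ± 39.6 against 482 ± 5.48 CPM; both have processed pseudogenes that may share reads. BLVRA, biliverdin reductase, ran the other way at 0.0835 ± 0.0389 against 16 ± 0.176 CPM. Of 26 tested iron and haem genes, 7 were at least 2-fold higher in MV4-11 and 3 in OCI-AML3. The latter became 5 without MV4-11 replicate 1 or 3 or OCI-AML3 replicate 2 or 3, and 6 without MV4-11 replicate 2. Among detoxifying enzymes, ALDH2, the mitochondrial aldehyde dehydrogenase, had 0.311 ± 0.129 against 14.4 ± 0.859 CPM, and CBR1, a carbonyl reductase, 5.05 ± 0.604 against 33.6 ± 1.53 CPM. Among genes of nucleoside drugs, SAMHD1, which cleaves the active form of cytarabine, was 2.80-fold higher in OCI-AML3 (65.2 ± 3.65 against 182 ± 11.6 CPM), and SLC29A1, the transporter that brings cytarabine in, 2.5-fold higher (32.8 ± 1.42 against 82.0 ± 3.20 CPM). Of 20 tested genes of drug transport and nucleoside analogues, 5 were at least 2-fold higher in MV4-11 and 5 in OCI-AML3. NAPRT, an entry to NAD synthesis, was 8.21-fold higher in MV4-11 (27.5 ± 2.18 against 3.35 ± 1.01 CPM), and KMO, of the kynurenine route, 5.88-fold higher. Their list, of arginine, polyamine, tryptophan and NAD enzymes, leaned to neither line. Of its 26 tested members, 7 were at least 2-fold higher in MV4-11 and 6 in OCI-AML3.

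Among genes of cell surface proteins, the RNAs for the chains of a beta-2 integrin went opposite ways. These libraries do not measure protein on the surface. ITGAL, the alpha chain of LFA-1, gave 718, 625 and 682 CPM in MV4-11 and 18.0, 19.5 and 16 CPM in OCI-AML3, 37.8-fold higher in MV4-11 (log2 difference 5.24 ± 0.089 (SE), edgeR adjusted p = 4.09e-28). ITGB2, the beta chain it pairs with, gave 519.5, 502 and 513 CPM in MV4-11 and 2045, 2223 and 1893 CPM in OCI-AML3. Here all OCI-AML3 libraries were above those of MV4-11, by 4.01-fold (log2 difference -2.01 ± 0.073 (SE), edgeR adjusted p = 4.86e-20). ITGAX, the alpha chain CD11c, had 15.4 ± 1.23 against 0.504 ± 0.128 CPM, and ICAM1, the ligand of LFA-1, 13.4 ± 0.831 against 1.25 ± 0.0755 CPM. CD44, the hyaluronan receptor, was 3.6-fold higher in OCI-AML3 (90.2 ± 3.46 against 325 ± 9.23 CPM). Over 36 tested integrin and adhesion genes, 12 were at least 2-fold higher in MV4-11 and 8 in OCI-AML3.

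Chemokine receptors were mostly higher in MV4-11 by number and in OCI-AML3 by sum. Of 16 tested of 27, 10 were at least 2-fold higher in MV4-11 and 2 in OCI-AML3, with a median log2 difference of 2.12. The summed level ran from 215 to 222 CPM in MV4-11 and from 374 to 405 in OCI-AML3. CXCR4, which holds blasts in the marrow, was 4.39-fold higher in OCI-AML3 (27.0 ± 2.47 against 119 ± 9.0 CPM), and CCR1, a receptor of inflammatory chemokines, 3.17-fold higher (66.5 ± 4.44 against 211 ± 9.11 CPM). CCR2, the receptor of classical monocytes, gave 52.6, 50 and 48.8 CPM in MV4-11 and 8.24, 8.36 and 8.17 CPM in OCI-AML3, 6.12-fold higher in MV4-11.

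Surface antigens studied as drug targets in myeloid leukaemia tilted to MV4-11, with 15 of 33 tested members at least 2-fold higher there and 7 in OCI-AML3. CD52, the target of alemtuzumab, gave 9.86, 10.7 and 11.9 CPM in MV4-11 and no counts in the 3 OCI-AML3 libraries, at least 143-fold higher in MV4-11. CD82 and CD37, both tetraspanins, had 40.1 ± 1.40 against 2.67 ± 0.724 CPM and 133 ± 6.09 against 32.8 ± 1.80 CPM. CD300A, an inhibitory receptor, was 37.1-fold higher in MV4-11. CD38, an ectoenzyme and antibody target, was 4.78-fold higher in OCI-AML3 (4.67 ± 0.983 against 22.3 ± 1.63 CPM). CD276, the checkpoint ligand B7-H3, was 4.84-fold higher in OCI-AML3 (8.34 ± 1.2 against 40.4 ± 3.58 CPM). CD70 and CD47, ligands of immune checkpoints, were close at 79.3 ± 4.87 against 63.9 ± 3.29 CPM and 50.8 ± 1.10 against 40.4 ± 0.708 CPM. Among checkpoint and co-stimulatory ligands as a list, 11 of 19 tested were at least 2-fold higher in MV4-11 and 2 in OCI-AML3. LGALS9, galectin-9, had 318 ± 18.0 against 97.4 ± 9.34 CPM, NECTIN2, a ligand of TIGIT, 46.5 ± 0.148 against 7.15 ± 0.216 CPM, and CD40 0.349 ± 0.137 against 6.38 ± 0.628 CPM.

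Lectin-type receptors were more often higher in MV4-11. Of 36 tested C-type lectins, Siglecs and LILR receptors, 15 were at least 2-fold higher in MV4-11 and 5 in OCI-AML3, with a median log2 difference of 0.80. SIRPB1, an activating receptor that signals through TYROBP, was 11.2-fold higher in OCI-AML3 (4.18 ± 0.00450 against 46.6 ± 1.36 CPM), where TYROBP was lower. LILRB4, an inhibitory receptor of monocytic leukaemia, was 1.66-fold higher in MV4-11 (99.2 ± 1.62 against 59.6 ± 3.47 CPM). Of the Fc receptors, FCGRT, the neonatal Fc receptor, was 5.85-fold higher in OCI-AML3 (6.98 ± 0.318 against 40.8 ± 4.95 CPM), and FCGR1A, the high-affinity IgG receptor, which has a near-identical copy, 2.76-fold higher in MV4-11 (231 ± 3.82 against 83.7 ± 5.48 CPM). Ion channels added some of the widest gaps. KCNN4, a calcium-gated potassium channel of blood cells, gave 81.3, 76.9 and 80.9 CPM in MV4-11 and 0.155, 0.228 and 0 CPM in OCI-AML3, 624-fold higher in MV4-11 (log2 difference 9.21 ± 0.22 (SE), edgeR adjusted p = 1.36e-24). KCNE5, a regulatory potassium channel subunit, had 114 ± 9.87 against 0.375 ± 0.0659 CPM. HVCN1, the proton channel of phagocytes, was 7.31-fold higher (75.7 ± 2.89 against 10.4 ± 1.21 CPM), and P2RX7, the ATP-gated channel that triggers the inflammasome, 166-fold higher (21.3 ± 0.887 against 0.129 ± 0.162 CPM). ORAI2, a calcium channel subunit, was 2.87-fold higher in OCI-AML3 (21.7 ± 2.19 against 62.4 ± 2.76 CPM).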

How the data were processed

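Total RNA was made into QuantSeq 3′ libraries, per the labels' protocols. Reads were handled, per the submitters' processing notes, with HISAT2 2.0.4 on hg19, featureCounts of Subread 2.0.0 and limma 3.42.2, among other tools; annotation and strand setting are not given in the sources used here, so overlapping or near-identical genes may share or lose reads. The authors deposited raw counts per gene, and normalised log2 values that served only as an alternative input. A row without a symbol (0.00343% to 0.00427% of counts in the DMSO libraries) was left out.

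Counts of all 12 libraries were filtered with filterByExpr, scaled by TMM and fitted with edgeR 4.0.16 (robust quasi-likelihood, R 4.3.3), with a mean per group and 8 residual degrees of freedom. The contrast was MV4-11 DMSO against OCI-AML3 DMSO, with Benjamini-Hochberg adjustment over 12392 genes. Replicates were not duplicates: chi-square per degree of freedom between them lay between 2.79 and 6.65. In data simulated for this comparison over 12392 genes, 52%, 88%, 100% and 100% of 50 genes each with log2 changes of 0.5, 1, 2 and 3 were recovered, and 5.03% of calls were false. Only those genes were changed, and the lowest genes were not among them, whereas 65.5% of tested genes were called in the data. Recovery and the share of false calls depend on how many genes change, so these figures do not describe the comparison itself. Where a line had 0 counts in its 3 libraries together, 3 counts stood in for it and the fold is a bound. Ratios with 1 to 3 counts have 95% exact intervals, which cover counting error only.

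Members and lists were chosen with earlier results of these data known. Named genes were 30 key genes, the 20 largest folds each way (a mean of at least 20 counts in the higher line and no overlap), the 15 most abundant genes read in one line only each way, and in each of 55 lists up to 6 called genes each way with the largest folds and at least 5 CPM and up to 3 abundant genes within 1.5-fold. Pseudogenes, clone names and sex-linked markers were not named, and some genes are not reported here. BCL6, GPI, HERC5, HOXB6, HOXB7, HOXB13, IFIT1, LILRB4, PIK3CG, PIM2, SOCS3 and TNF fall outside it and were chosen after their values were seen. PTPRC was named as a marker of the labelled cell type. Promoters were taken from RefSeq (GRCh38.p14). Of the tested genes, 9877 matched a sequence, and 250 bases were searched on both strands. A gene with several starts was counted as holding a motif if any of its starts did. Alternatives were median-ratio scaling, other filters, DESeq2 1.42.0, limma-voom (limma 3.58.1), limma on the deposited log2 values, a replicate block, the 6 DMSO libraries alone, an adjusted p under 0.01, other limits for genes read in one line only, and each DMSO library left out.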

Additional observations from a re-analysis of the deposited data

How the results depend on the processing

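The counts of genes that differed, in each direction and at 2-fold, stayed within 1.5 times the reported ones under every alternative run. Over all of them, 6946 to 8471 genes differed, 1263 to 1864 were at least 2-fold higher in MV4-11 and 1235 to 1900 in OCI-AML3. Leaving out 1 DMSO library gave 7562 to 7799, 1665 to 1731 and 1658 to 1715; the line left with 2 libraries borrows its spread from all groups. Of the 3374 calls at 2-fold, 3372 remained in the same direction with median-ratio scaling, 3352 with DESeq2, 3351 with limma-voom and at least 3282 without any 1 library, and none was called in the opposite direction. The number of genes read in one line only depends on its limits. With 0 counts asked of the other line it was 67 for MV4-11 and 114 for OCI-AML3, and with at least 50 counts in every library 79 and 119. With at least 10 counts it was 202 and 256, and without 1 library it ran from 155 to 189 and from 203 to 239. The stricter filter and the deposited values test fewer genes, so that lists rich in low genes had fewer calls, such as chemokine receptors (5 rather than 10 higher in MV4-11).

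SHMT2 changed sign on the deposited log2 values, at 0.033 (limma adjusted p = 0.712). PIM3, IRF1 and CCND3 passed the threshold under 4, 3 and 1 of the alternatives, and LDHA missed it without MV4-11 replicate 3. Deviations of libraries with the same replicate number correlated at 0.0643, -0.023 and 0.0869, and those with other numbers at -0.113 to 0.0598. So few values cannot decide whether the numbers pair the samples, and the labels do not say. With the replicate number as a block (replicate block), 8008 genes differed, 3930 higher in MV4-11 and 4078 in OCI-AML3, with 1676 and 1683 at 2-fold, and 3354 of the 3374 calls remained. Of the genes named, UBE3A alone changed its call with the block (edgeR adjusted p = 0.0476). Depth limits genes near 3 counts, where a gene may be expressed and not read.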

Other observations

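Regulators of DNA methylation and chromatin differed by small amounts. Of 37 tested of 42, 20 were higher in OCI-AML3 and 8 in MV4-11, but only 3 and 2 by at least 2-fold. KDM6B, a demethylase of histone H3, was 3.43-fold higher in MV4-11 (24.8 ± 1.75 against 7.24 ± 2.34 CPM), and IDH2, a mitochondrial dehydrogenase mutated in other leukaemias, 1.95-fold higher (312 ± 24.3 against 160.3 ± 11.5 CPM). MLLT10, a partner of DOT1L in active chromatin, was 2.22-fold higher in OCI-AML3 (12.3 ± 1.18 against 27.3 ± 2.38 CPM). DNMT1, the maintenance methyltransferase, had 671 ± 28.0 against 538 ± 27.4 CPM, a far smaller difference than that of DNMT3A. Imprinted genes included SNRPN and NDN on the MV4-11 side and GNAS, which encodes the stimulatory G-protein subunit, on the OCI-AML3 side at 69.9 ± 9.12 against 163 ± 23.8 CPM. UBE3A, an imprinted neighbour of SNRPN in the genome, did not pass the test at 180.1 ± 1.61 against 162 ± 4.15 CPM (edgeR adjusted p = 0.0537).

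Some genes that differed lay next to each other. With 12038 tested genes placed in RefSeq order by name, 54 runs of at least 4 neighbouring tested genes were all at least 2-fold higher in the same line, 25 in MV4-11 and 29 in OCI-AML3. The runs held 272 genes. Of all tested genes, 27.2% passed the test at 2-fold or more. How many runs that share alone would give was not tested. The rule for runs and the runs named were chosen after seeing the data, and no run was tested. A run of 14 zinc finger genes from ZNF529 to ZNF875 was higher in MV4-11 with a median log2 difference of 1.84. Another of 10, from ZNF433 to ZNF709, was higher in OCI-AML3 with a median of -6.39. A run of 7 genes around FLT3, from LNX2 to FLT1 and including CDX2, was higher in MV4-11 with a median of 3.32. A run of 6 chemokine receptors and neighbours from CCR3 to TMIE had a median of 3.19, and one of 6 HOXC genes and transcripts from HOTAIR to HOXC6 had 3.97. In OCI-AML3, 5 neighbours from KIRREL1 to IFI16 had a median of -4.10, and 5 S100 genes and neighbours from S100A11 to S100A6 had -2.24. Neighbouring zinc finger genes are alike in sequence and may share reads.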
